A study of Mus musculus with 36 samples.

Results

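The *Rhox* genes (reproductive homeobox genes on the X chromosome) were followed through fetal germ cells and gonads exposed to intrauterine hyperglycemia (IUHG). Gene symbols made of Rhox, a number and an optional letter gave 32 genes among the 61788 symbols of the gene tables, and 5 of them, *Rhox5*, *Rhox6*, *Rhox9*, *Rhox10* and *Rhox13*, are described in full. These 5 were chosen by their TPM in these same libraries, that is, by their levels and by their stage and IUHG differences. Their values are therefore given as a description, without p-values.

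RNA-seq was done on 36 libraries in 12 groups of 3. The gonad groups held E13.5 female gonads from control or IUHG pregnancies, with several pairs of gonads pooled in each library. The primordial germ cell (PGC) groups were control and IUHG cells at E12.5, for which the labels give no sex, and cells of female (F) and male (M) fetuses at E13.5 and E16.5. PGCs were sorted by EGFP from pooled fetuses sired by *Oct4-EGFP* males, a transgene that marks germ cells in the fetal gonad, and the labels give the genotype as WT in all 12 groups. Dams were 8 weeks old at mating. In the IUHG groups dams received streptozotocin (STZ), a toxin of pancreatic beta cells, on gestational day 3.5 (120 mg/kg), and those with blood glucose over 14 mM on day 6.5 were kept. The methods name no STZ for control dams, so STZ and hyperglycemia cannot be told apart in these groups. The paper also reports dams given STZ whose blood glucose did not rise, with no significant difference in PGC number. None of the 36 libraries is labelled as from such dams. The labels number the 3 libraries of a group as biological replicates.

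The *Rhox* cluster encodes homeodomain transcription factors expressed mainly in the testis, ovary, placenta and germ cells. *Rhox1* to *Rhox4* form the alpha part of the cluster, in which *Rhox2*, *Rhox3* and *Rhox4* exist as many near-identical copies, *Rhox5* to *Rhox9* form the beta part, and *Rhox10* to *Rhox13* the gamma part. DNA methylation is known to keep much of the cluster silent outside reproductive tissue and placenta. *Rhox5* (also called *Pem*) is the founding member and is known from Sertoli cells, early embryos and germ cells. *Rhox6* and *Rhox9* (*Psx1* and *Psx2*) are known from placenta and germ cells, *Rhox10* from male germ cells at the prospermatogonial stage, and *Rhox13* as a germ cell gene that retinoic acid induces.

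Levels are given as TPM, a unit of transcript abundance that is scaled for transcript length and sums to the same total in every library, so that levels of different genes can be compared. Differences are log2 differences of TPM + 1 with a standard error (SE) from limma, and this scale understates differences of low genes. A gene was called when the Benjamini-Hochberg adjusted p over all genes tested was under 0.01 and the fold change over 2 in PGCs, or under 0.05 with a fold change of at least 2 in gonads. Aligned depth was 3.89 to 4.95 gigabases per gonad library and 3.25 to 8.32 gigabases per PGC library. TPM does not give the read count behind a single gene, and that count was not derived here. Germ cell markers were high in every PGC group, with the 6 fixed markers (among them *Dazl* and *Ddx4*) summing to between 2619 (E16.5 females, IUHG) and 9612 (E13.5 males, control) TPM over PGC libraries. The Y-linked *Eif2s3y* was listed at 0 in all libraries of female PGCs. In gonads, control library 1 held 27.5 TPM of *Eif2s3y*, against 0 in the other 5, and its Sertoli markers (among them *Sox9* and *Amh*) reached 375 TPM in sum, against 22.1 to 26.2 TPM in the IUHG gonads.

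Of the 32 genes, 29 had a mean of at least 1 TPM in at least 1 PGC group and 14 had it in all 10 PGC groups, while 15 reached it in gonads. *Rhox5*, *Rhox6*, *Rhox9*, *Rhox10* and *Rhox13* were the 5 genes with a group mean of at least 100 TPM. The summed level of the 32 genes was 3131 ± 152 TPM (SD, n = 3) in control PGCs at E12.5, that is, 0.313% of all TPM. It was 3258 ± 134 TPM in control females at E13.5 and 1025 ± 15.4 TPM in control males. At E16.5 it was 675 ± 63.5 TPM in females and 1133 ± 33.5 TPM in males, made up of different genes in each sex. *Rhox5*, *Rhox6* and *Rhox9* together held 91.8% of the sum at E12.5 but 27.3% in E16.5 females and 27.8% in E16.5 males. *Rhox13* held 29.6% in E16.5 females, and *Rhox10* held 54.1% in E16.5 males.

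**Figure D1:**
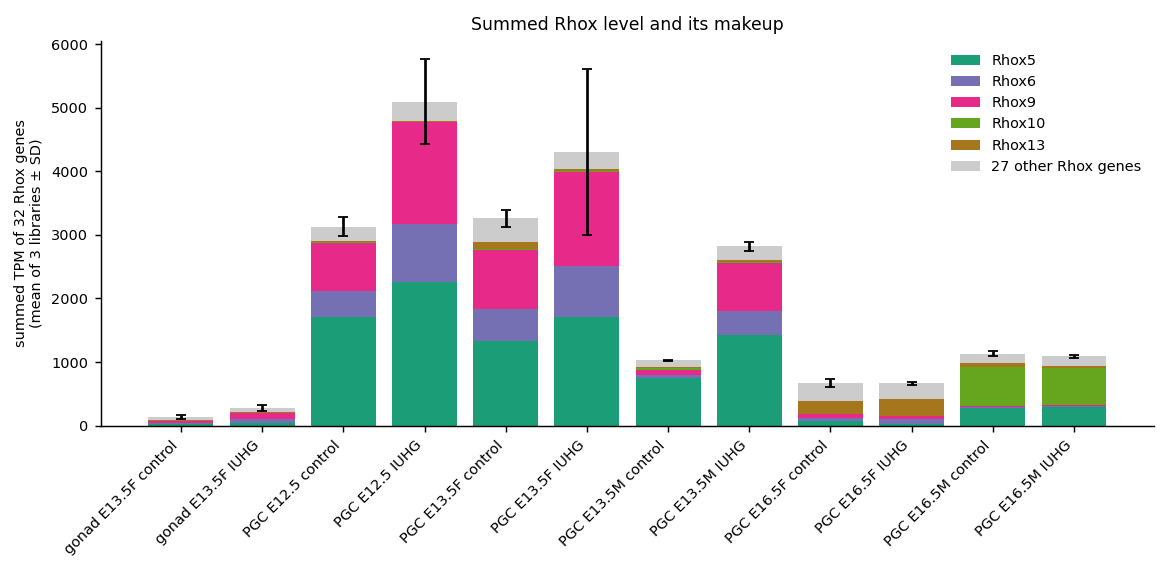
Summed TPM of the 32 *Rhox* genes in each of the 12 groups (vertical axis in TPM, bars starting at 0), with the mean of 3 libraries divided into *Rhox5*, *Rhox6*, *Rhox9*, *Rhox10*, *Rhox13* and the 27 others; error bars are the SD of the sum. The sum in E13.5 males went from 1025 TPM in controls to 2820.4 TPM under IUHG, and the light green *Rhox10* block filled most of the E16.5 male bars.

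*Rhox5* (ENSMUSG00000095180.11, chrX:36891636-36897311, plus strand of mm39 as listed in the PGC tables) was the highest *Rhox* gene in every PGC group at E12.5 and E13.5. Control PGCs held 1560.3, 1806 and 1746 TPM at E12.5. At E13.5 control females held 1334, 1259 and 1399 TPM and control males 741, 747 and 771 TPM. The 3 groups did not overlap, with E12.5 highest and males lowest. By E16.5 control females were at 80.3, 64.3 and 54.2 TPM and control males at 279, 266 and 281 TPM, so the order of the sexes was turned. From E13.5 to E16.5 the log2 difference was -4.32 ± 0.13 (SE) in females and -1.45 ± 0.045 in males, called in both. Control gonads, in which germ cells are a minority, held 16.6, 26.1 and 23.4 TPM. In bulk tissue fewer germ cells and less RNA per germ cell cannot be told apart.

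*Rhox6* (ENSMUSG00000006200.4, chrX:36915787-36918734, plus strand) and *Rhox9* (ENSMUSG00000068048.9, chrX:36987974-36990647, minus strand) are near copies of each other that flank *Rhox7a*, *Rhox8* and *Rhox7b*. Their coding sequences, both 684 bases in GENCODE M1 transcripts matched by gene ID, differed at 64 positions, an identity of 90.6%. The longest run without a difference was 161 bases. Reads of such a run could come from either gene, and 17.1% of the 100-base words of the *Rhox6* transcript and 17.7% of those of *Rhox9* occurred in another *Rhox* transcript. The sequences below show how well the pair can be told apart, first at bases 167 to 286 of the coding sequence, a stretch of 120 bases with 0 differences, and then at bases 343 to 462, the 120 bases with the most, 24. They are written 5′ to 3′, and capitals mark the bases that differ.
Rhox6, bases 167 to 286: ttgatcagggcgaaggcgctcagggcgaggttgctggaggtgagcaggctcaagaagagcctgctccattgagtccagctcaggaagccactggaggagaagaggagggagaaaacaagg
Rhox9, bases 167 to 286: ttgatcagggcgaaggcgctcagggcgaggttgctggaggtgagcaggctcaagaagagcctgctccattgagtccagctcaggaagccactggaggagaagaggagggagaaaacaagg
Rhox6, bases 343 to 462: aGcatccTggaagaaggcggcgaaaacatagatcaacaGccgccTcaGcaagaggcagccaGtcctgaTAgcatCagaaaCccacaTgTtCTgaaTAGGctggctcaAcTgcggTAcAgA
Rhox9, bases 343 to 462: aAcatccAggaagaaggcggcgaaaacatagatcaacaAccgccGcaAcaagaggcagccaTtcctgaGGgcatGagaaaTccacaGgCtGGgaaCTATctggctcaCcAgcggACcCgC

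The first pair of lines is identical, and in the second pair 24 of 120 bases differ. The ratio of *Rhox9* to *Rhox6* was not constant. Mean ratios of TPM in control groups were 1.81 ± 0.0501 (SD, n = 3) at E12.5, 2.17 ± 0.060 in E13.5 males and 0.868 ± 0.148 in E16.5 males.

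In control PGCs *Rhox6* stood at 400.5, 430.1 and 417 TPM at E12.5. E13.5 females held 478, 496 and 553 TPM, whereas E13.5 males held 43.6, 37.2 and 40.4 TPM. Females were thus above E12.5 and males below it, with no overlap. For *Rhox9* the E12.5 controls held 747, 759 and 756 TPM. E13.5 females held 958, 863 and 940.3 TPM and E13.5 males 96.2, 81.8 and 84.7 TPM. The female minus male log2 difference at E13.5 was 3.62 ± 0.091 for *Rhox6* and 3.38 ± 0.084 for *Rhox9*, beside 0.82 ± 0.065 for *Rhox5*. Over the other X-linked genes tested the median of that difference was 0.91 (611 genes), against 0.28 over all 15703 genes. Both genes were low at E16.5. *Rhox6* was at 61.2, 42.6 and 47.7 TPM in control females and 22.8, 20.1 and 21.4 TPM in control males, and *Rhox9* had means of 68.4 and 18.7 TPM.

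*Rhox10* (ENSMUSG00000053909.9, chrX:37155352-37160568, plus strand) was high in 1 cell population. Control males at E16.5 held 652, 595 and 594 TPM, and this was the highest *Rhox* level at that stage. Control PGCs held 13.2, 14.8 and 17.5 TPM at E12.5, 12.1, 16.0 and 12.0 TPM in E13.5 females and 21.0, 26.0 and 30.3 TPM in E13.5 males. E16.5 females were near 0, with 1.68, 0 and 5.03 TPM. The male log2 difference from E13.5 to E16.5 was 4.54 ± 0.12, and the E16.5 female minus male difference -7.92 ± 0.55.

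*Rhox13* (ENSMUSG00000050197.6, chrX:37210096-37218844, plus strand), at the far end of the cluster, was the highest *Rhox* gene of E16.5 females. Control females held 115, 108 and 115 TPM at E13.5 and 220.4, 175 and 205 TPM at E16.5. Control males held 9.39, 9.02 and 5.23 TPM at E13.5 and 52.4, 44.2 and 50.2 TPM at E16.5. PGCs at E12.5, with 9.01, 9.54 and 10.0 TPM, overlapped E13.5 males. The difference between the stages was called in males (2.52 ± 0.19) and not in females (0.82 ± 0.11), where the fold change was under 2. The 3 libraries at E16.5 nevertheless lay above the 3 at E13.5, as they did for 38.9% of all genes.

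The 250 bases before the RefSeq start of *Rhox10* and *Rhox13* (GRCm38.p6, plus strand, 5′ to 3′) are shown because *Rhox10* was the highest *Rhox* gene of E16.5 males and *Rhox13* that of E16.5 females, with CG dinucleotides, the sites of DNA methylation, in capitals.
Rhox10, chrX:38066225-38066474: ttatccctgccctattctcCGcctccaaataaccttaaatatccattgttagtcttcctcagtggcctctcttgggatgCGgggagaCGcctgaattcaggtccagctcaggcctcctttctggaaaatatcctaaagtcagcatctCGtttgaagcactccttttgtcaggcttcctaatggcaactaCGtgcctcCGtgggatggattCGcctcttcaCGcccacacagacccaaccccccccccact
Rhox13, chrX:38120590-38120839: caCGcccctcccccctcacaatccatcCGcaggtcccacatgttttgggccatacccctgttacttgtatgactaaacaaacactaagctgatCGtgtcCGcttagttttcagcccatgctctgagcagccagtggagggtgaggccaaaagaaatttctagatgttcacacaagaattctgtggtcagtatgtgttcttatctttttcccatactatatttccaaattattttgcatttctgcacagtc
*Rhox10* had 8 CG dinucleotides in this window and *Rhox13* had 4, against a median of 6 (quartiles 2 and 16) over 32817 promoters of RefSeq. Over the 25 *Rhox* genes with a promoter in that table the median was 4, with a range from 0 in *Rhox1* to 8 in *Rhox10*. The letters AGGTCA, the half-site of nuclear receptors such as those of retinoic acid, were searched on both strands. They occurred in 14.0% of all these windows and in 11 of the 25 *Rhox* windows, of which 6 belong to *Rhox4* copies, 4 to *Rhox3* copies and 1 to *Rhox12*. The windows of *Rhox10* and *Rhox13* did not hold them.

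**Figure D2:**
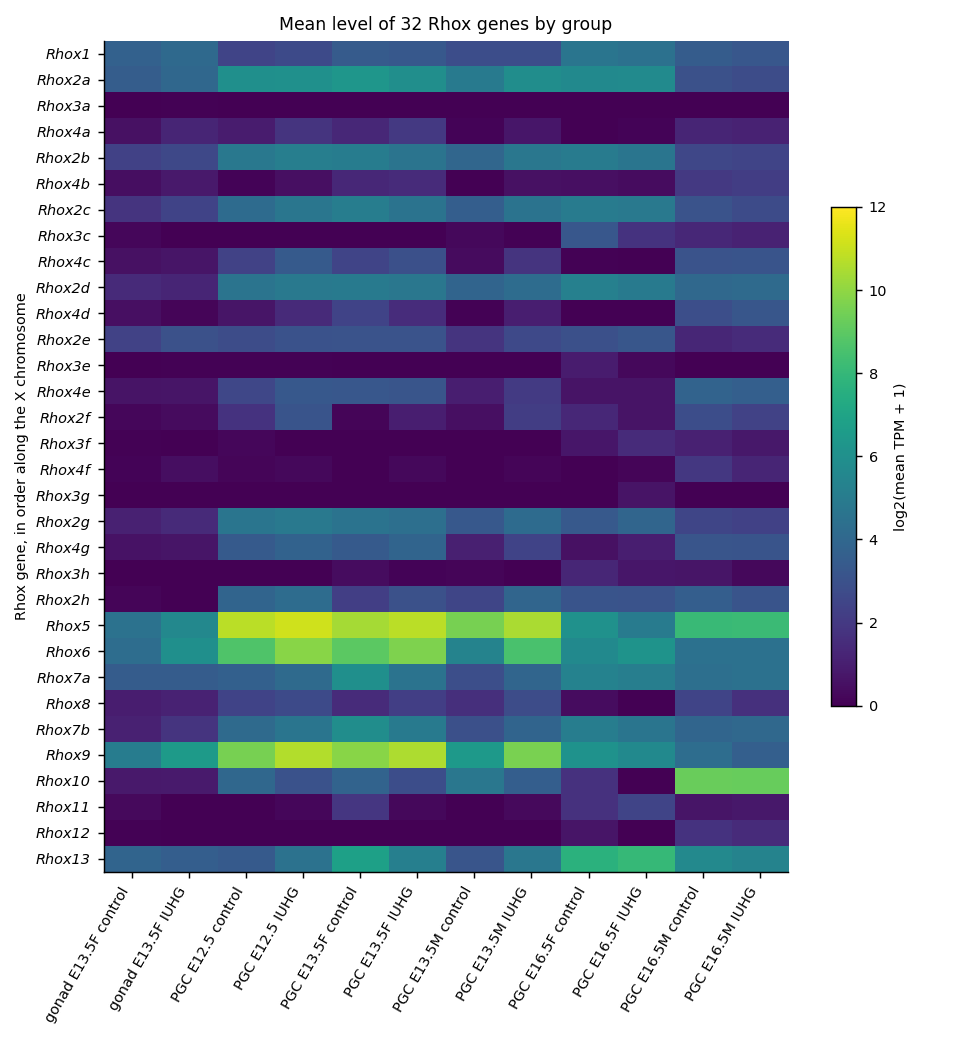
Mean level of the 32 *Rhox* genes (rows, in their order along the X chromosome) in the 12 groups (columns), as log2 of mean TPM + 1 on a color scale from 0 (dark) to 12 (yellow). *Rhox5*, *Rhox6* and *Rhox9* form the bright block at E12.5 and E13.5, and *Rhox10* is bright in E16.5 males with means of 614 and 585 TPM.

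Among the other genes, the copies of the alpha part did not share 1 sex pattern at E16.5. In E16.5 controls *Rhox2a* was higher in females (51.2 ± 2.33 TPM against 6.88 ± 0.675 TPM), whereas *Rhox4e* was higher in males (13.0 ± 3.30 TPM against 0.541 ± 0.572 TPM). *Rhox2f*, another *Rhox2* copy, was higher in males as well (6.24 ± 2.13 TPM against 1.54 ± 0.860 TPM). In E13.5 controls *Rhox4e* was higher in females instead, with 8.70 against 0.999 TPM. *Rhox3* copies stayed low, and the highest group mean among them was that of *Rhox3c* in E16.5 control females, 8.69 ± 2.81 TPM. These copies are uncertain as separate genes, since coding sequences were 94.1% to 99.1% identical within *Rhox2*, 98.8% to 100% within *Rhox3* and 98.2% to 99.7% within *Rhox4*, and the authors kept uniquely mapped reads in PGCs. *Rhox7a* and *Rhox7b* were at 61.3 ± 7.37 TPM and 58.6 ± 2.56 TPM in E13.5 control females, against 6.38 ± 0.681 TPM and 6.64 ± 1.65 TPM in control males. Outside these sets *Rhox1* had its highest mean in E16.5 control females, 24.0 ± 1.32 TPM, and *Rhox8* in E13.5 IUHG males, 5.99 ± 1.52 TPM. *Rhox11*, *Rhox12*, *Rhox4a*, *Rhox4b*, *Rhox4f*, *Rhox3f* and *Rhox3h* peaked between 1.42 and 4.53 TPM, and *Rhox3a*, *Rhox3e* and *Rhox3g* were below 1 TPM in every group mean.

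Counted over the family, 17 of 23 tested members were called higher in females at E13.5 and 0 lower, beside 20.4% and 9.35% of all genes. All 32 members are X-linked, and of 611 other X-linked genes tested, 273 were called higher and 24 lower. At E16.5 11 of 29 members were called higher and 11 lower, beside 22.9% and 28% of all genes. Of 806 other X-linked genes tested at E16.5, 298 were called higher and 162 lower. From E13.5 to E16.5, 2 of 26 members, *Rhox1* and *Rhox3c*, were called higher and 10 lower in females (all genes 18.4% and 9.79%). In males 14 of 27 were called higher and 4 lower (all genes 38.3% and 12.7%). Near-identical copies count here as separate members. A member under 1 TPM in 1 group entered only through the other group, where it was higher, so the filter set its direction. Another scaling, by median-of-ratios size factors, moved the balance of these counts. It gave 14 higher and 1 lower, *Rhox10*, at E13.5, where the calls over all genes became 2127 and 2213 in place of 3211 and 1469 and the median difference of all genes -0.03 in place of 0.28. At E16.5 it gave 7 higher and 11 lower (all genes 4152 and 7151 in place of 5042 and 6180). Between the stages it gave 1 higher and 11 lower in females (all genes 2539 and 2408 in place of 3304 and 1760) and 12 higher and 6 lower in males (all genes 6404 and 3788 in place of 7826 and 2591).

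**Figure D3:**
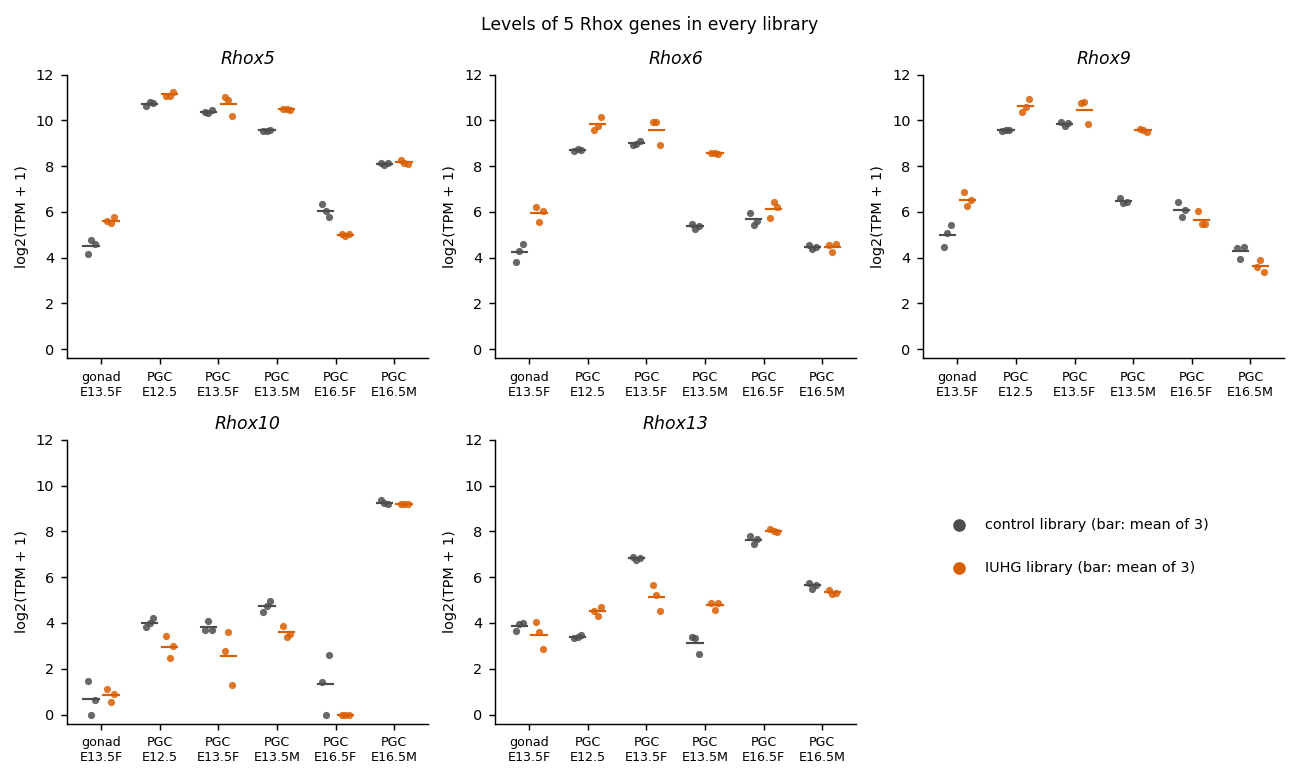
Levels of *Rhox5*, *Rhox6*, *Rhox9*, *Rhox10* and *Rhox13* in every library, as log2 of TPM + 1 (vertical axis), for control (grey) and IUHG (orange) libraries of the 6 sets of samples, with bars at the mean of 3. IUHG points of *Rhox6* and *Rhox9* lie apart from control points in E13.5 males, and those of *Rhox13* lie above control in E13.5 males and below control in E13.5 females.

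The comparison of IUHG with control PGCs of E13.5 males gave the widest differences of the family. *Rhox6* went from 43.6, 37.2 and 40.4 TPM in controls to 377, 383 and 372 TPM under IUHG, and *Rhox9* from 96.2, 81.8 and 84.7 TPM to 794, 763 and 728 TPM. Log2 differences were 3.20 ± 0.061 (SE) and 3.11 ± 0.064. The level of *Rhox6* in IUHG males was near that of E12.5 controls, whose mean was 416 TPM, and below that of E13.5 control females, 509 TPM. *Rhox13* rose as well, from 9.39, 9.02 and 5.23 TPM to 28.3, 22.9 and 27.9 TPM, a log2 difference of 1.65 ± 0.18. *Rhox5* was at 741, 747 and 771 TPM and 1434, 1457 and 1388 TPM, a difference of 0.92 ± 0.038 that was under the 2-fold limit and so not called. *Rhox10* fell, from 21.0, 26.0 and 30.3 TPM to 13.7, 9.55 and 10.3 TPM (-1.14 ± 0.15). For each of these 5 genes the control and IUHG libraries did not overlap.

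Of the 21 members tested in E13.5 males, 10 were called higher and 1, *Rhox10*, lower, beside 2.03% and 1.9% of all 14458 genes. The others called higher were *Rhox2f*, *Rhox2h*, *Rhox4c*, *Rhox4e*, *Rhox4g*, *Rhox7a* and *Rhox8*, the last known from somatic cells of the gonad. *Rhox7a* went from 7.04, 6.41 and 5.68 TPM to 14.4, 13.7 and 14.2 TPM, and *Rhox2h* from 4.18, 4.58 and 5.47 TPM to 13.9, 15.8 and 12.1 TPM. *Rhox2a*, the highest of the alpha genes, was at 34.1, 29.3 and 26.7 TPM in controls and 61.8, 57.2 and 57.6 TPM under IUHG, just under the 2-fold limit (0.95 ± 0.088). *Rhox1*, the first gene of the cluster, differed least (-0.02 ± 0.15). In the whole family 18 of 21 tested members had higher values in all 3 IUHG libraries than in all 3 controls, and 1 had lower values, beside 21.8% and 25.4% of all genes. Many of the 18 are near-identical *Rhox2* and *Rhox4* copies, which are uncertain as separate genes. *Rhox2f*, *Rhox2h*, *Rhox4c*, *Rhox4e* and *Rhox4g* among the calls are such copies. Members enter the test only where a group mean reaches 1 TPM, and 11 of the 32 did not. *Rhox2f* (means of 0.400 in control and 3.47 TPM under IUHG), *Rhox4c* (0.295 and 2.47 TPM), *Rhox4d* (0.0634 and 1.02 TPM) and *Rhox4e* (0.999 and 3.09 TPM) entered only through their IUHG mean. The filter thus set their direction, and all but *Rhox4d* are among the calls. The count of called members was 7 with no filter on low values and 7 with a filter at 5 TPM.

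Genes next to the cluster are a comparison that the choice of members did not use. Among 25 named genes inside the cluster or within 500 kb of it, 15 were tested in E13.5 males. *Slc25a43*, a mitochondrial carrier gene upstream of the cluster, rose by 1.06 ± 0.21 (limma with Benjamini-Hochberg adjustment, adjusted p = 0.00394). Its mean went from 0.745 to 2.72 TPM, so *Slc25a43* entered only through its IUHG mean and the filter set its direction. None of the other 14 was called, and the median log2 difference of the 15 was 0.20, beside 0.10 over 515 other X-linked genes and 0.98 over the 21 *Rhox* genes. Among the 14, *Ube2a* (0.73 ± 0.083, limma adjusted p = 0.000177), *Ndufa1* (0.52 ± 0.071, limma adjusted p = 0.000509) and *Upf3b* (0.39 ± 0.084, limma adjusted p = 0.00634) rose by less than 2-fold. The only neighbours below 0 were *Dppa3-ps*, a pseudogene listed between *Rhox* genes (-0.20), *Lamp2*, downstream of the cluster (-0.17), and *Steep1* (-0.03). *Zbtb33*, also downstream, was at 0.17 and likewise entered only through its IUHG mean (1.01 TPM, against 0.788 TPM in controls). Whether *Rhox* genes differed more than their neighbours was not tested, since members were chosen with these values known.

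Of 8 genes that respond to or handle retinoic acid, 5 were tested in E13.5 males and 3 rose. The gene lists were chosen with earlier results of these data known, so p-values of their genes, here and below, are descriptions. *Stra8*, the retinoic acid target that licenses meiosis, had mean levels of 11.2 TPM in controls and 149 TPM under IUHG (log2 difference 3.63 ± 0.14, limma adjusted p = 2.51e-07). *Rec8*, a meiotic cohesin, rose by 1.76 ± 0.10 (limma adjusted p = 2.52e-06) and *Crabp1*, a retinoic acid binding protein, by 1.18 ± 0.11 (limma adjusted p = 5.04e-05). Of 12 genes of DNA methylation, its removal and histone H3 lysine methylation, among them *Dnmt1*, *Uhrf1* and *Tet1*, 10 were tested and 0 were called. Of 14 germline genes known to be silenced by DNA methylation, such as *Dazl* and *Sycp3*, 14 were tested and 0 were called. The list medians of these last 2 were -0.21 and -0.18, and that of all genes -0.02.

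Markers of other cells moved in the same libraries. The 6 interstitial markers summed to 24.2 to 36.6 TPM in control and 3.65 to 5.57 TPM in IUHG E13.5 males, and 2 of the 4 tested, the Leydig cell genes *Insl3* and *Cyp11a1*, fell. The 6 Sertoli markers, of which 0 were called, summed to 84.4 to 94.1 TPM and 89.8 to 112 TPM. *Aard* made up most of these sums, from 48.5 to 55.7 and from 59.9 to 77.7 TPM. *Amh*, the hormone gene of fetal Sertoli cells, was at a mean of 3.92 and 2.18 TPM without overlap, and *Ptgds* at 27.0 and 23.3 TPM. The median log2 difference of the Sertoli list was -0.17. The 6 pregranulosa markers, of which *Irx3* rose and *Rspo1* fell, summed to 14.9 to 19.4 TPM and 9.10 to 10.4 TPM. The 4 endothelial markers, of which only *Pecam1*, also a PGC gene, reached a mean of 1 TPM, summed to 46.7 to 52.3 TPM and 73.1 to 83.5 TPM. The 5 blood markers, of which 2 were tested and 0 called, summed to 2.08 to 62.9 TPM and 0.916 to 1.15 TPM. The 6 germ cell markers summed to 8927 to 9612 TPM and 7831 to 8134 TPM. *Eif2s3y* was at 156 ± 15.5 TPM in controls and 108 ± 1.79 TPM under IUHG, while *Ddx3y*, also Y-linked, was at 4.62 ± 0.258 and 4.56 ± 0.054 TPM. Their part in the *Rhox* values was not tested.

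**Figure D4:**
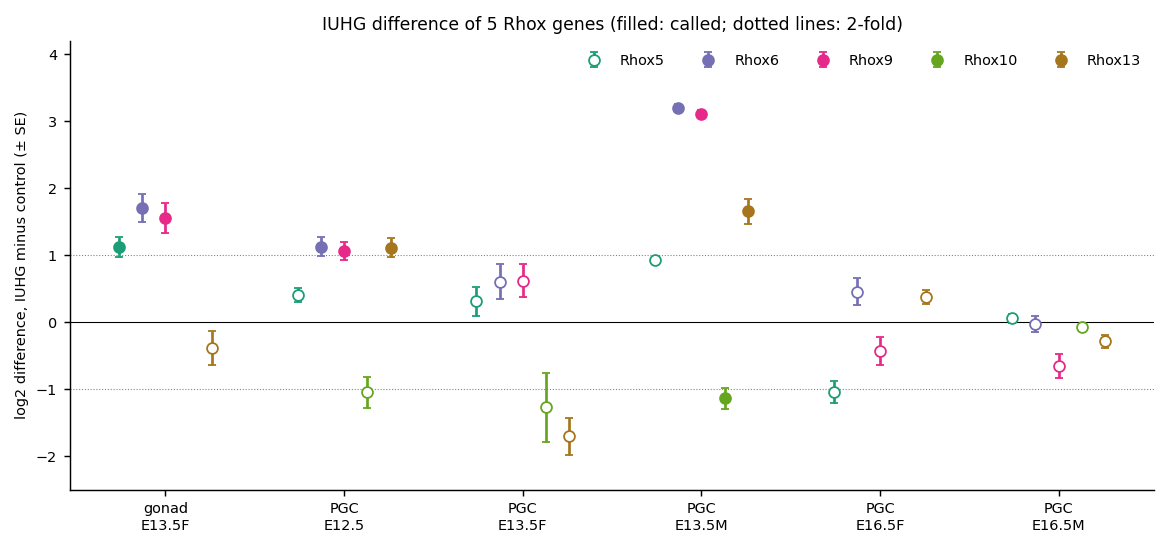
Log2 difference between IUHG and control (vertical axis, ± SE) of 5 *Rhox* genes in the 6 sets of samples; filled points were called, open points were not, and dotted lines mark a 2-fold difference. *Rhox6* and *Rhox9* in E13.5 males stand at 3.20 and 3.11, while no point of the E16.5 sets is filled. *Rhox10* has no point in gonads, where it was not tested, or in E16.5 females, where it was listed at 0 in every IUHG library.

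In E13.5 females 10 of 23 tested members had a log2 difference from controls above 0 and 13 below 0, and no member was called. *Rhox13* was at 115, 108 and 115 TPM in controls and 48.9, 36.7 and 21.7 TPM under IUHG, a log2 difference of -1.70 ± 0.28. *Rhox7a* had 69.2, 60.2 and 54.6 TPM and 21.1, 25.4 and 21.1 TPM, and *Rhox7b* had 58.2, 61.3 and 56.2 TPM and 31.2, 31.0 and 27.3 TPM. All 3 genes were lower in every IUHG library than in every control. *Rhox6* was instead at 478, 496 and 553 TPM in controls and 964, 986 and 483 TPM under IUHG, and *Rhox9* at 958, 863 and 940.3 TPM and 1739, 1773 and 918 TPM. IUHG replicates 1 and 2 stood above all controls, whereas replicate 3 lay within or below them, as it did for *Rhox5* (2044, 1911 and 1156 TPM, against 1334, 1259 and 1399 TPM in controls). Log2 differences were 0.31 ± 0.22 for *Rhox5*, 0.60 ± 0.26 for *Rhox6* and 0.62 ± 0.25 for *Rhox9*. *Rhox10* was at 12.1, 16.0 and 12.0 TPM and 5.82, 11.3 and 1.45 TPM, again lowest in replicate 3.

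Of 23 members tested in E13.5 females 0 were called, beside 0.515% of all genes. At an unadjusted p under 0.01 with a fold change over 2 the count was 3, beside 1002 of all 16519 genes. Without overlap between the groups 6 members were lower and 2, *Rhox4g* and *Rhox8*, higher, beside 13.2% and 19.8% of all genes. *Rhox11*, among the 6, entered only through its control mean (2.75 TPM, against 0.189 TPM under IUHG). Without IUHG replicate 3, 2 members and 430 of 15834 genes were called, *Rhox13* among them with -1.39 ± 0.15, and *Rhox6* and *Rhox9* stood at 0.94 ± 0.10 and 0.93 ± 0.096. In these females *Stra8* fell, from a mean of 1832 to 428 TPM (log2 difference -2.12 ± 0.19, limma adjusted p = 0.00109), the 1 call among 7 tested genes of the retinoic acid list. Of the 14 germline genes known to be silenced by DNA methylation, 4 fell (*Sycp3*, *Mael*, *Tex101* and *Taf7l*) and 0 rose, and of 11 tested genes of DNA methylation 0 were called. Next to the cluster *Slc25a5*, a mitochondrial ADP/ATP carrier gene, rose by 1.23 ± 0.16 (limma adjusted p = 0.00574), and the other 16 tested neighbours were not called. The 4 endothelial markers, of which only *Pecam1*, also a PGC gene, reached a mean of 1 TPM, summed to 51.2 to 69.8 TPM in controls and 89.3 to 209 TPM under IUHG. Sertoli markers summed to 39.8 to 47.1 TPM and 36.4 to 56.3 TPM, with *Amh* listed at 0 in all 6 libraries. The 6 germ cell markers summed to 5196 to 5447 TPM in controls and 5839 to 6518 TPM under IUHG, and 1 of them, *Mael*, fell. The part of these markers in the *Rhox* values was not tested.

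**Figure D5:**
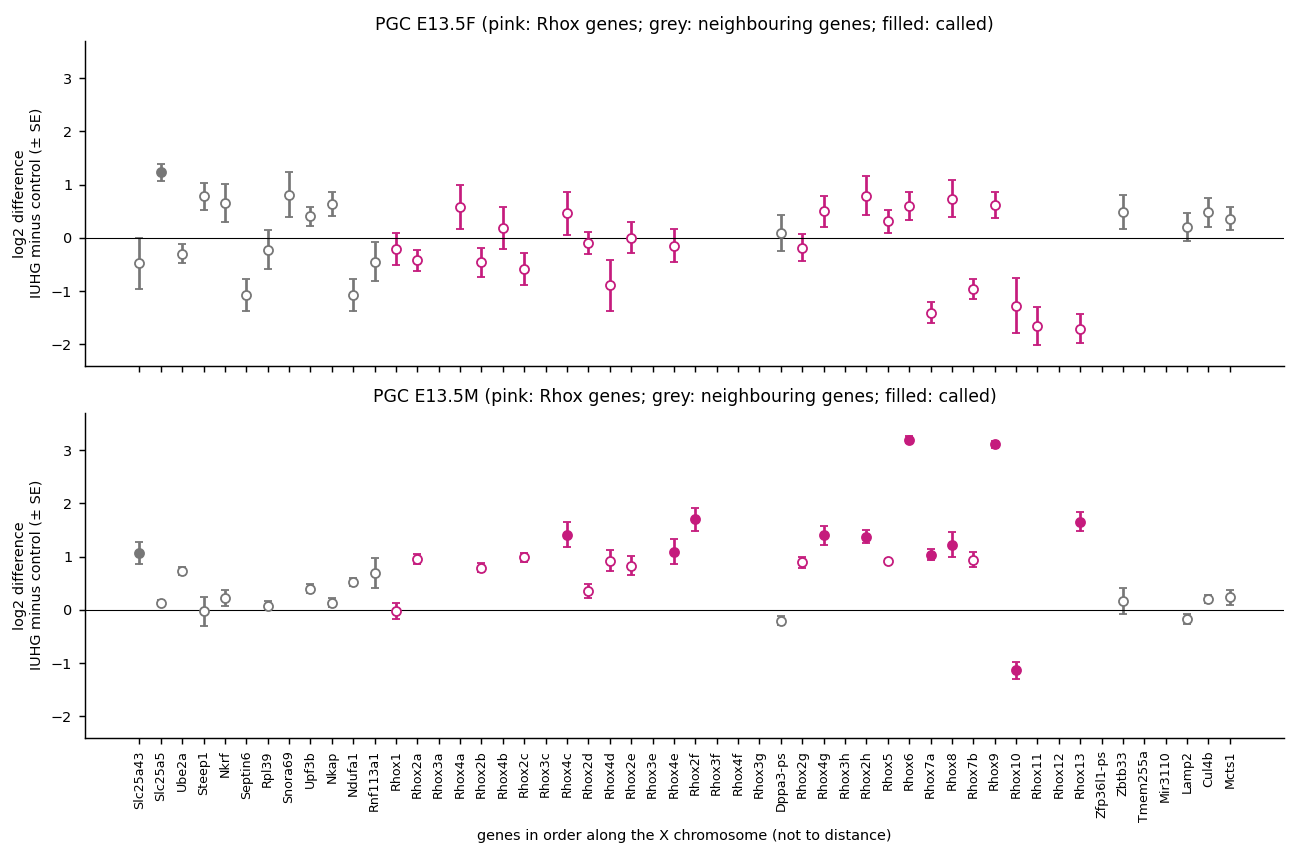
Log2 difference between IUHG and control (vertical axis, ± SE) of *Rhox* genes (pink) and named neighbours (grey) in their order along the X chromosome, not to distance, in E13.5 female (top) and E13.5 male (bottom) PGCs; filled points were called, and genes without a point were not tested. In males the filled pink points run from *Rhox4c* to *Rhox13*, and in females *Rhox7a*, *Rhox7b*, *Rhox10*, *Rhox11* and *Rhox13* lie lowest among the *Rhox* genes.

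To set the sexes against each other at E13.5, the female minus male difference of the IUHG effects was fitted as an interaction term. It was -3.36 ± 0.37 (SE) for *Rhox13*, -2.59 ± 0.30 for *Rhox6*, -2.49 ± 0.28 for *Rhox9* and -0.61 ± 0.24 for *Rhox5*. Of 24 members tested, 7 passed an adjusted p of 0.01, all with a lower value in females, beside 2% of all genes. The 4 others were *Rhox2a*, *Rhox7a*, *Rhox7b* and *Rhox11*. *Rhox11*, low in this tissue, was at 3.35, 1.79 and 3.12 TPM in control and 0.498, 0.0694 and 0 TPM in IUHG females. It was under 1 TPM in all E13.5 male libraries. *Rhox11* thus entered only through its mean in control females, and the filter favored a lower value in females for it. *Stra8* had an interaction of -5.75 ± 0.25 (limma adjusted p = 4.81e-08).

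At E12.5, in PGCs whose labels give no sex, *Rhox6*, *Rhox9* and *Rhox13* rose under IUHG. *Rhox6* was at 400.5, 430.1 and 417 TPM in controls and 760.3, 861 and 1142 TPM under IUHG (1.12 ± 0.14). *Rhox9* was at 747, 759 and 756 TPM and 1331, 1514 and 1924 TPM (1.06 ± 0.13), and *Rhox13* at 9.01, 9.54 and 10.0 TPM and 21.8, 19.0 and 24.6 TPM (1.11 ± 0.14). No IUHG library overlapped a control library for these 3 genes, and the IUHG libraries differed among themselves more than the controls did. *Rhox5* was 1560.3, 1806 and 1746 TPM and 2164, 2167 and 2438 TPM, a difference of 0.41 ± 0.10 that was not called, and *Rhox10* was 13.2, 14.8 and 17.5 TPM and 9.70, 4.47 and 7.00 TPM (-1.05 ± 0.24, not called). Of 22 members tested, 3 were called higher and 0 lower, beside 0.124% of all genes, and 14 were higher and 1, *Rhox10*, lower without overlap, beside 13.3% and 9.13%. Among the 14 are near-identical *Rhox2* and *Rhox4* copies. Of these, *Rhox4a* (means of 0.872 in control and 2.50 TPM under IUHG) and *Rhox4d* (0.579 and 1.71 TPM) entered only through their IUHG mean. The 3 calls did not hold when a library was left out: without IUHG replicate 3 *Rhox13* alone was called, and without any of the other 5 libraries 0 were. Control and IUHG pools also differed in a Y-linked gene, with *Eif2s3y* at 192 ± 10.4 and 133 ± 13.9 TPM, and *Ddx3y* at 6.32 ± 0.692 and 4.96 ± 1.51 TPM. Marker sums that did not overlap between control and IUHG pools were those of interstitial cells (3.79 to 5.37 TPM and 1.16 to 2.45 TPM), pregranulosa cells (4.35 to 5.83 TPM and 1.36 to 4.10 TPM), endothelial cells (123 to 132 TPM and 147 to 165 TPM) and germ cells (7733 to 8375 TPM and 6811 to 7614 TPM). Only 1 of the 4 endothelial markers reached a mean of 1 TPM. The part of the sex of the pooled fetuses and of these marker sums in the *Rhox* values was not tested.

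At E16.5 no member was called in either sex. In females *Rhox5* was at 80.3, 64.3 and 54.2 TPM in controls and 31.9, 30.0 and 31.8 TPM under IUHG, without overlap, a log2 difference of -1.04 ± 0.17. *Rhox13*, the highest *Rhox* gene of these cells, was at 220.4, 175 and 205 TPM and 271, 257 and 249 TPM (0.38 ± 0.11), also without overlap. *Rhox10* was listed at 0 in the 3 IUHG libraries. *Rhox6* (50.5 and 70.2 TPM on average) and *Rhox9* (68.4 and 50.7 TPM) overlapped between groups. Of 21 members tested 0 were called, beside 0.742% of all genes. Without overlap between the groups 3 members were higher and 3 lower, beside 14.9% and 14.1% of all genes. *Rhox3f*, among those higher, entered only through its IUHG mean (1.82 TPM, against 0.676 TPM in controls), so the filter set its direction. At an unadjusted p under 0.01 with a fold change over 2 the count was 2 members, beside 909 of all 18734 genes.

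In E16.5 males *Rhox10* was at 652, 595 and 594 TPM in controls and 589, 585 and 580.5 TPM under IUHG, a difference of -0.07 ± 0.053, small next to its stage difference. In the same libraries interstitial markers summed to 106 to 204 TPM and 70.7 to 93.1 TPM and Sertoli markers to 132 to 134 TPM and 89.7 to 106 TPM, and their part in the *Rhox* values was not tested. *Rhox5* was at 279, 266 and 281 TPM and 306, 278 and 275 TPM. *Rhox6* had means of 21.4 and 21.2 TPM. *Rhox13* was lower in each IUHG library, with 42.8, 37.5 and 39.2 TPM against 52.4, 44.2 and 50.2 TPM (-0.29 ± 0.094), and *Rhox9* likewise with 11.1, 14.0 and 9.36 TPM against 20.5, 14.2 and 21.4 TPM (-0.65 ± 0.18). Of 27 members tested 0 were called by limma, beside 0.201% of all genes, and 0 at an unadjusted p under 0.01 with a fold change over 2, beside 235 of all 20921 genes. Without overlap between the groups 1 member was higher and 6 lower, beside 17.8% and 12% of all genes. In the interaction of sex and IUHG at E16.5, 1 of 29 members passed, *Rhox5* with -1.10 ± 0.17 and a lower value in females, beside 0.849% of all genes. It passed in 4 of 12 fits that left out 1 library, and its value there ran from -1.23 to -0.95.

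In E13.5 female gonads *Rhox5*, *Rhox6* and *Rhox9* stood higher under IUHG at a lower level. *Rhox9* went from 21.3, 32.5 and 41.5 TPM in controls to 115, 75.02 and 89.98 TPM under IUHG (1.55 ± 0.23). *Rhox6* went from 13.2, 18.4 and 23.3 TPM to 72.9, 46.5 and 64.8 TPM (1.70 ± 0.21) and *Rhox5* from 16.6, 26.1 and 23.4 TPM to 47.5, 44.4 and 53.0 TPM (1.12 ± 0.15). These 3 genes rose without overlap between the groups. In the family 7 members were higher without overlap and 0 lower, beside 14.5% and 11.3% of all genes. *Rhox4a* and *Rhox8*, both among the 7, entered only through their IUHG mean. *Rhox13* was at 11.7, 14.6 and 15.1 TPM and 15.3, 11.0 and 6.31 TPM, which overlapped (-0.39 ± 0.26), and *Rhox10* was under 2 TPM in all 6 libraries and not tested. Of 15 members tested, 3 were called higher and 0 lower, beside 0.389% and 0.233% of all genes. Without control library 1, which carried Y-linked transcripts, *Rhox6* was at 1.50 ± 0.18, *Rhox9* at 1.30 ± 0.17 and *Rhox5* at 0.94 ± 0.094, the last no longer called. Over the 6 fits that left out 1 library *Rhox6* was called in 6, *Rhox5* in 3 and *Rhox9* in 2, and the count of members called was 1 without IUHG replicate 1 or without IUHG replicate 2. The 6 germ cell markers summed to 499.97 to 587 TPM in control and 659.9 to 817 TPM in IUHG gonads, and 0 of 6 were called. The 5 blood markers summed to 10159 to 12249 TPM and 8154 to 9373 TPM, and 1 of them, *Hbb-bs*, a globin gene, fell. Their part in the *Rhox* values was not tested. None of the 17 tested neighbours of the cluster was called in gonads, and their differences ran from -0.36 to 0.37.

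The genes whose levels ran most like each member were taken from 11855 genes with a mean of at least 10 TPM in a PGC group, by Pearson's r of mean log2(TPM + 1) over the 10 PGC groups. For *Rhox6* the first was *Rhox9* (r = 0.98), followed by *Pdgfa*, a growth factor gene (r = 0.96), and *Pls3*, an X-linked actin-bundling gene (r = 0.96). For *Rhox9* they were *Rhox6*, *Ccne1*, the cyclin E1 gene (r = 0.97), and *BC048679* (r = 0.96). *Rhox5* ran most like *Dut*, which encodes dUTPase (r = 0.99), *Tuba1b*, an alpha-tubulin (r = 0.99), and *Pipox* (r = 0.99). *Rhox10* ran most like *Gm13016*, *Pgm1* and *Myo1e* (each r = 0.99), and *Rhox13* most like *Luzp1*, *Lpin3* and *Xlr4d-ps* (each r = 0.97). Among the 5 members *Rhox5* and *Rhox13* ran most against each other (r = -0.74). The 10 groups share stages and a sex, and controls and IUHG cells of 1 stage resemble each other, so these values are descriptions.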

How the data were processed

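RNA was sequenced from pooled female gonads at E13.5 (6 libraries) and from sorted PGCs (30 libraries). PGC RNA was amplified as full-length cDNA. The authors aligned gonad reads with HISAT2 and PGC reads with STAR (mm39, uniquely mapped reads kept), and quantified genes with StringTie. The methods name mm9 for gonads, whereas gene positions in the deposited gonad tables follow GRCm38. The deposited StringTie tables hold TPM, FPKM and coverage for each gene, TPM being the main unit, FPKM an alternative and coverage the base of the aligned depth. StringTie can split reads between near-identical genes, and unique mapping drops reads shared by copies. The authors' tests on read counts are not used here.

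Where a symbol had several gene IDs, the ID with the highest mean was taken. log2(TPM + 1) was fitted for genes with a mean of at least 1 TPM in at least 1 compared group by limma 3.58.1 in R 4.3.3 (empirical Bayes with trend, two-sided), and p-values were adjusted by Benjamini-Hochberg over all genes tested. In PGCs a gene was called at an adjusted p under 0.01 with a fold change over 2, in gonads under 0.05 with at least 2, and in interactions at an adjusted p under 0.01. The fits were tested on simulated data. Gonads and PGCs were never fitted together. Alternatives were FPKM, a pseudocount of 0.1, other filters, median-of-ratios scaling, summed gene IDs, 1 fit over all PGC groups, other thresholds, the replicate number as a block and leaving out each library.

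The members and the gene lists were chosen with earlier results of these data known. Named were the 5 members, any other *Rhox* gene with a group mean of at least 5 TPM or a call, the 3 genes most like each member, called genes of the lists with up to 4 others, and neighbours within 500 kb. Promoter sequences were from RefSeq (25 of 32 genes matched) and coding sequences from GENCODE M1 transcripts (26 of 32 matched). 6 further *Rhox* entries on patch sequences in the gonad tables were at 0 TPM in all libraries. The limma p-values set a group difference against the spread between pooled libraries, not between single dams or fetuses.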

Additional observations from a re-analysis of the deposited data

Results flagged for a closer look

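The effect of IUHG differed between female and male PGCs in the interaction term for 4 of the 5 members, and these values are descriptions, since the members were chosen with them known. At E13.5 the log2 effect in females minus that in males was -2.59 (SE 0.30) for *Rhox6*, -2.49 (SE 0.28) for *Rhox9* and -3.36 (SE 0.37) for *Rhox13*. Mean levels of *Rhox6* and *Rhox9* under IUHG were above control in both sexes, with overlapping libraries in females, whereas *Rhox13* was above control in males and below it in females. These 3 passed in each of the 12 fits that left out 1 library. At E16.5 the term was -1.10 (SE 0.17) for *Rhox5*, which was lower in IUHG females and near the control level in IUHG males. It passed in 4 of the 12 fits that left out 1 library, and did not pass with median-of-ratios scaling or with no filter on low values.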

How the results depend on the processing

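Counts are of *Rhox* genes called, and no direction of a called value was reversed under any alternative run. In gonads (3) no filter gave 0, and leaving out 1 library gave 1 to 3. At E12.5 (3) an adjusted p under 0.05 gave 5, an unadjusted p under 0.01 gave 6, no filter gave 0, and leaving out 1 library gave 0 to 1. In E13.5 females (0) an adjusted p under 0.05 gave 3, an unadjusted p gave 3, FPKM gave 1, a filter at 5 TPM gave 1, median-of-ratios scaling gave 1, 1 fit over all PGC groups gave 3, and leaving out 1 library gave 0 to 2. In E13.5 males (11) no filter gave 7, a filter at 5 TPM gave 7, and leaving out 1 library gave 9 to 13. In E16.5 females (0) an adjusted p under 0.05 gave 2, an unadjusted p gave 2, FPKM gave 1, a filter at 5 TPM gave 1 and 1 fit over all PGC groups gave 2. In E16.5 males 0 was the count under all alternatives. The interaction at E13.5 (7) gave 12 at an unadjusted p and 6 to 9 without 1 library. The interaction at E16.5 (1) gave 2 at an adjusted p under 0.05, 3 at an unadjusted p, 0 with no filter, 0 with median-of-ratios scaling, 2 with 1 fit over all PGC groups, and 0 to 1 without 1 library. Sex and stage counts in total (17, 22, 12 and 18) stayed within 1.5 times under all alternatives, while of those at E16.5 the 11 higher in females became 7 with FPKM and 7 with median-of-ratios scaling. With no filter more genes are adjusted for; the other causes were not tested.

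Libraries were not paired by replicate number, since in no comparison were all correlations of same-numbered libraries over 0.1. This cut cannot exclude pairing. In E13.5 males all 3 IUHG libraries correlated best with the control of their own number (r = 0.022, 0.064 and 0.10), and in E13.5 females 2 did. With the replicate number as a block the counts were 2 in gonads, 0 at E12.5, 2 in E13.5 females and 11 in E13.5 males. Read counts behind single genes were not derived here, which limits members near 1 TPM.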
